A study of Mus musculus with 3 samples.

Results

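The genes described here build and remodel the extracellular matrix of the lung: collagens, laminins, fibrillins, fibulins, elastin, lysyl oxidases, small proteoglycans, matrix metalloproteinases and their tissue inhibitors (TIMPs). They were chosen by gene symbol alone, through the RefSeq identifiers of the deposited table, which gave 98 transcripts of 78 genes out of 16383 transcripts. RNA of whole mouse lung (strain C57BL/6J/mixed background) was sequenced from 1 wild-type library (WT) and 2 libraries of Lin28a and Lin28b KO mice (DKO 1 and DKO 2). In the knockouts tamoxifen activated NKX2.1creERT, a Cre recombinase that in lung is active in epithelium, and exon 2 of each gene was removed between loxP sites. Age, sex and tamoxifen dose are not in the labels, nor is it said whether WT carried the loxP alleles, the Cre or tamoxifen, or whether each DKO library is its own animal. A p-value thus measures only the spread between these libraries, taken from the DKO pair and applied to WT. Most of that spread is pooled over many transcripts, so a standard error is not the spread of 1 gene.

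Matrix genes are expressed for the most part by fibroblasts, smooth muscle and other mesenchymal cells, and a share of the basement membrane comes from epithelium and endothelium. Fibrillar collagens give interstitial tissue its tensile strength, type IV collagen and laminins form the sheet on which epithelium rests, and elastin on a fibrillin scaffold gives the lung its recoil. Branching of lung epithelium goes with local thinning and renewal of that sheet, in which metalloproteinases cut the matrix and TIMPs restrain them. The deletion was directed to epithelium and the RNA came from whole lung, so these values mix cells with and without the deletion, and fewer cells of a type and less RNA per cell cannot be told apart.

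Lin28 proteins block the maturation of let-7 microRNAs, and miR-29 is known to repress collagen genes, so the 3′ UTRs were searched for matches to both seeds. The mature sequences (RefSeq, GRCm38.p6) are shown 5′ to 3′ with the seed, bases 2 to 8, in capitals, because the most abundant collagens carry a let-7 match.

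let-7k: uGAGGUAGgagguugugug
miR-29a-3p: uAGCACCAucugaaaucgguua

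A let-7 seed match (CTACCTC, transcript strand only) lay in the 3′ UTR of 4 of the 26 matrix genes that were abundant enough to be tested. These were Col1a1, Col1a2, Col3a1 and Col5a2, the 4 collagens with the highest mean level. Col4a1, without a let-7 match, had a mean close to that of Col1a1 and was above Col1a1 in WT and DKO 2. The share with a let-7 match was 15.4% of tested matrix genes and 6.75% of the 2030 tested transcripts with an annotated 3′ UTR. A miR-29 match (TGGTGCT) was present in 12 of the 26, or 46.2%, against 12.2% of all tested transcripts. The median 3′ UTR was 1064 bases in the matrix genes and 788 bases in all tested transcripts, so more sequence was searched in the matrix genes. The 4 let-7 matches, in capitals within the transcript sequence around them, and 1 miR-29 match each of Col3a1 and Eln were as follows (GENCODE M21 transcripts, GRCm38).

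Col1a1 let-7 match (chr11:94952390-94952416, plus strand): tgtgttgctgaaagaCTACCTCgttct
Col1a2 let-7 match (chr6:4541062-4541088, plus strand): ttccaaaggtttgaaCTACCTCaagac
Col3a1 let-7 match (chr1:45349135-45349161, plus strand): tcctccctatgttaaCTACCTCaactg
Col5a2 let-7 match (chr1:45375097-45375123, minus strand): atttcttagcatgacCTACCTCatctc
Col3a1 miR-29 match (chr1:45348967-45348993, plus strand): ttcaaaatgtctcaaTGGTGCTataat
Eln miR-29 match (chr5:134703732-134703758, minus strand): cgacctcatcaacgtTGGTGCTactgc

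A match of these letters is a description and does not show that a microRNA binds there. The 4 collagens with a let-7 match are all fibrillar, and Col1a1, Col3a1 and Col5a2 also carry a miR-29 match. Their median log2 difference from WT was 0.52 in DKO 1 and 0.03 in DKO 2. In the tested matrix genes without a let-7 match it was 0.08 and −0.26. Over the 137 tested transcripts with a let-7 match it was 0.05 and 0.12, and over those without one −0.02 and 0.04. In the 12 matrix genes with a miR-29 match it was 0.13 and 0.02, and in those without one 0.17 and −0.40. Over all tested transcripts it was −0.03 and 0.04 for the 248 with a miR-29 match, and −0.02 and 0.04 for those without one. The part of the matches in these values was not tested. All log2 differences are on the scale log2(RPKM + 1), where RPKM are reads per kilobase of transcript scaled to library depth.

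No matrix gene passed the test between DKO and WT. Transcripts were tested where their mean over the libraries was at least 1 RPKM, which 26 matrix transcripts of 26 genes reached. With limma and Benjamini-Hochberg adjustment over all 2066 tested transcripts, 2 transcripts (0.0968%) were called, neither of them a matrix gene. At an unadjusted p under 0.05 there were 66 (3.19%), again with 0 matrix genes. The limma adjusted p was 0.999 for each of the 26, with a standard error between 0.64 and 0.95 on the log2 scale. Differences of the size seen here were thus not detectable with these libraries, and the values that follow are described without a call. The median log2 difference over the 26 was 0.02, beside −0.01 over all tested transcripts. Of the 26, 8 lay above WT in both DKO libraries (32.1% of all tested transcripts did), 6 below WT in both (31%), and 12 on either side (36.9%).

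The knockout libraries differed from each other about as much in the matrix genes as elsewhere, with a median absolute log2 difference of 0.54 beside 0.58 over all tested transcripts. DKO 1 was the highest of the 3 libraries for 13 of the 26 (28% of all tested transcripts), DKO 2 for 7 (41%) and WT for 6 (31%). DKO 2 was the lowest library for 12 (35.1%). DKO 2 lay above DKO 1 in 9 of the 26, or 34.6%, and in 53.8% of all tested transcripts. On the log2(RPKM + 1) scale, only Col4a2 was at least 2-fold higher in DKO 2 than in DKO 1 (13.6% of all tested transcripts). Lum, Lama4 and Timp3 were at least 2-fold lower (12.8%). By RPKM without the added 1, Lamb2 was also over 2-fold higher, and Eln, Fbln1 and Col11a1 over 2-fold lower. The share of all tested transcripts by RPKM without the added 1 was not counted.

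**Figure D1:**
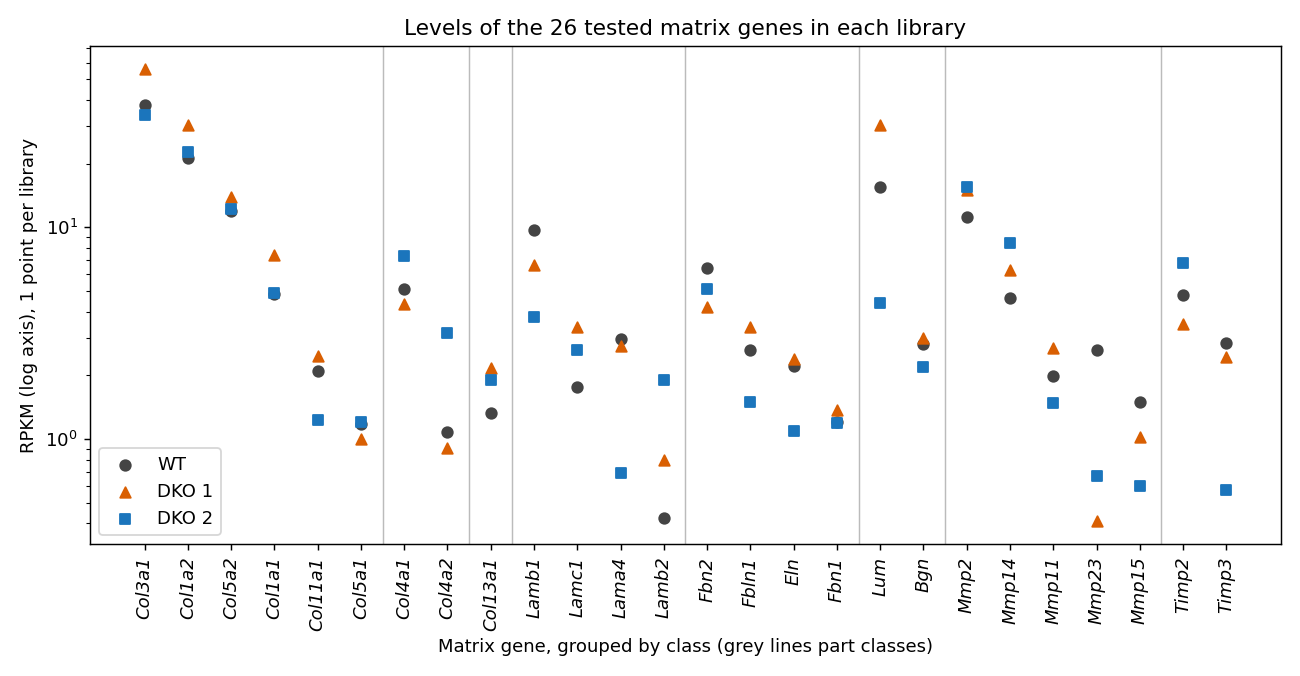
RPKM (log axis) of the 26 tested matrix genes, grouped by class, with 1 point per library for WT, DKO 1 and DKO 2. Col3a1 stands highest in every library, and in Lum, Lama4 and Timp3 the DKO 2 point lies far below the other points.

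In what follows, values in a row of 3 stand in the order WT, DKO 1, DKO 2. Among fibrillar collagens, Col3a1, the chain of type III collagen in pliable tissue, was the most abundant matrix transcript (NM_009930, chromosome 1, 45311538 to 45349706, GRCm38). Its levels were 37.98, 56.2 and 33.9 RPKM. Col1a2, a chain of type I collagen, followed with 21.3, 30.5 and 22.6 RPKM. Its partner chain Col1a1 was at 4.84, 7.44 and 4.91 RPKM. In these 3 genes DKO 1 was above the other libraries and DKO 2 close to WT.

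Col5a2, a chain of type V collagen that regulates fibril width, showed the same order more weakly, at 11.9, 13.9 and 12.3 RPKM. Col11a1, a minor fibril chain, was at 2.09, 2.48 and 1.23 RPKM, so that DKO 2 was lowest. Col5a1, another type V chain, was the exception, at 1.18, 0.997 and 1.21 RPKM with DKO 1 lowest. Thus 5 of the 6 tested fibrillar collagens were highest in DKO 1, and 3 were above WT in both knockouts. With quantile normalization or rescaling to TPM, Col1a1, Col1a2 and Col5a2 turned to the lower side of WT in DKO 2, while their place above WT in DKO 1 stayed. The fibrillar class summed to 79.3 RPKM in WT against 111.5 for DKO 1 and 76.1 for DKO 2.

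Chains of type I collagen kept similar proportions across libraries while their levels differed. The RPKM ratio of Col1a2 to Col1a1 was 4.39, 4.10 and 4.61. Type I collagen holds more Col1a1 than Col1a2 chains, so the order of these RPKM is opposite to that in the protein. The ratio of Col3a1 to Col1a2 was 1.79, 1.84 and 1.5. For Col5a2 to Col5a1, chains of type V collagen, it was 10.1, 13.95 and 10.2, with DKO 1 apart.

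Type IV collagen, the network former of basement membranes, was represented by Col4a1 and Col4a2, which lie head to head on chromosome 8 (11198423 to 11312889 and 11312805 to 11449287) with gene spans that share 85 bases. Col4a1 was at 5.13, 4.34 and 7.31 RPKM. Col4a2 was at 1.08, 0.908 and 3.16 RPKM. Both chains were highest in DKO 2 and lowest in DKO 1, the reverse of the order of Col1a1 between the knockouts. The ratio of Col4a1 to Col4a2 was close in WT and DKO 1, at 4.76 and 4.78, and lower in DKO 2, at 2.31. The strand setting of the counting is unknown, so reads of the shared bases are uncertain. Col4a3 and Col4a4, chains of kidney and alveolar basement membranes, were at most 0.117 RPKM in any library, and Col15a1, of the basement membrane zone, was at 0.726, 0.294 and 0.484 RPKM. The RPKM of tested fibrillar collagens divided by that of tested type IV chains and laminins was 3.75, 5.92 and 3.91, so DKO 1 alone stood apart.

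**Figure D2:**
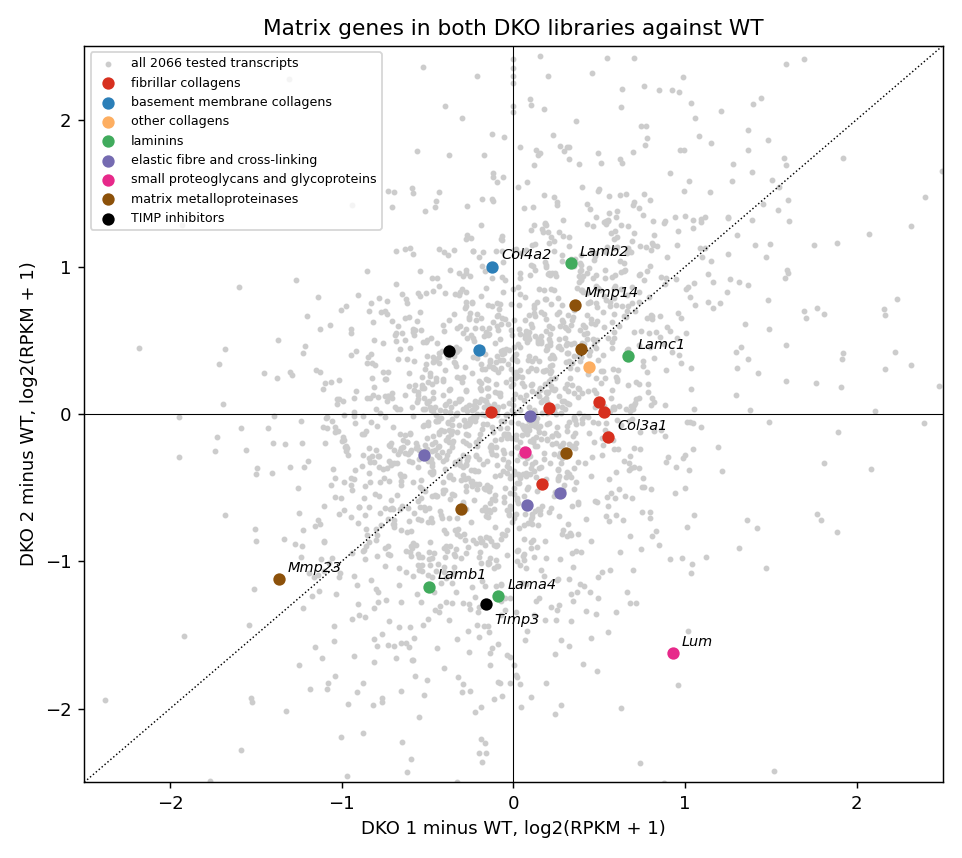
Difference from WT on the log2(RPKM + 1) scale in DKO 1 (horizontal) and DKO 2 (vertical), with all 2066 tested transcripts in grey and the 26 matrix genes coloured by class; axes are limited to the central range and the dotted line marks equal differences. Fibrillar collagens other than Col5a1 lie to the right of the vertical zero line, the type IV chains lie above the horizontal one, Lum lies far off the dotted line and Mmp23 near it at the lower left.

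Laminins are heterotrimers of an alpha, a beta and a gamma chain. Lamb1, the beta chain of most embryonic laminins, was the most abundant (NM_008482, chromosome 12, 31265146 to 31329644, GRCm38). Its levels were 9.76, 6.65 and 3.77 RPKM, with both knockouts below WT (log2 difference −0.83, SE 0.67, limma adjusted p = 0.999). Lamb2, the beta chain typical of vessels and neuromuscular junctions, had the opposite order, at 0.424, 0.794 and 1.90 RPKM (log2 difference 0.68, SE 0.85, limma adjusted p = 0.999). Lamb2 reached the level for testing only through DKO 2, as WT and DKO 1 were under 1 RPKM, so the filter itself favoured a higher value in DKO 2. The ratio of Lamb1 to Lamb2 was 23.0, 8.37 and 1.99, so no library was close to another.

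The shared gamma chain Lamc1 was above WT in both knockouts, at 1.76, 3.40 and 2.63 RPKM. The ratio of Lamb1 to Lamc1 was 5.53, 1.96 and 1.43, and WT stood apart. Lama4, the alpha chain of endothelial and mesenchymal basement membranes, was at 2.98, 2.74 and 0.691 RPKM, with DKO 2 apart. Of the chains under the level for testing, Lama1, typical of embryonic epithelium, was at 0.268, 0.0240 and 0.111 RPKM, and the epithelial chain Lama5 at 0.292, 0.329 and 0.216. The laminin class summed to 17.4 RPKM in WT against 15.5 for DKO 1 and 10.1 for DKO 2.

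In the elastic fibre class, Fbn2, the fibrillin of developing tissues, was the most abundant, at 6.44, 4.19 and 5.14 RPKM, and both knockouts were below WT. Fbn1, the main fibrillin of adult tissue, varied little at 1.21, 1.37 and 1.19 RPKM. Elastin itself, Eln, was at 2.21, 2.40 and 1.09 RPKM, with DKO 2 lowest. The fibulin Fbln1, of elastic fibres and basement membranes, was also lowest in DKO 2, at 2.63, 3.38 and 1.51 RPKM. Fbln5, which links elastin to cells, was untested and above WT in both knockouts, at 0.157, 0.979 and 0.863 RPKM. Of the lysyl oxidases, which cross-link collagen and elastin, Loxl1 was at 0.683, 1.17 and 0.377 RPKM and Loxl3 at 0.888, 0.266 and 0.0433.

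Lum, the gene of lumican, a small leucine-rich proteoglycan that binds collagen fibrils, had the largest distance between the knockouts among the 26 (NM_008524, chromosome 10, 97565501 to 97572703, GRCm38). Its levels were 15.6, 30.6 and 4.38 RPKM. WT lay between the knockouts, with DKO 1 at 1.96 times WT (95% counting interval 1.84 to 2.09) and DKO 2 at 0.281 times (0.251 to 0.315). Its mean log2 difference of −0.35 (SE 0.95, limma adjusted p = 0.999) is therefore near neither library. Bgn, for biglycan of the same family, was at 2.81, 3.002 and 2.19 RPKM. Dcn, for the collagen-binding proteoglycan decorin, had at most 0.294 RPKM in any library, and its other transcript was listed at 0. Tnc, for the glycoprotein tenascin C, was at 0.229, 0.354 and 0.0782 RPKM, again lowest in DKO 2.

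Col13a1, a transmembrane collagen of cell contacts, was the 1 tested gene of the remaining collagens, at 1.33, 2.17 and 1.91 RPKM with WT lowest. Col9a2, a chain of the cartilage collagen type IX, was at 0.651, 1.02 and 1.203 RPKM, and its partner Col9a3 at 0.808, 0.275 and 0.873. Of the 12 cartilage markers in the table, Col2a1, Col11a2, Matn1 and Chad were listed at 0 in every library. The sum of the 12 was 7.93, 7.78 and 4.69 RPKM. Much of this was Sox9, at 3.84, 2.34 and 1.47 RPKM, and the other 11 summed to 4.09, 5.43 and 3.22 with DKO 1 highest. The part of cartilage in these values was not tested. Col6a1, of type VI collagen microfibrils, was at 0.579, 0.148 and 0.250 RPKM. The other 6 detected collagens of this class were at most 0.331 RPKM.

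Mmp2 and Mmp14 stood above WT in both knockouts without passing the test. Mmp2, gelatinase A, which cuts type IV collagen, was at 11.2, 15.03 and 15.6 RPKM. Its membrane-bound activator Mmp14 was at 4.66, 6.26 and 8.48 RPKM (log2 difference 0.55, SE 0.65, limma adjusted p = 0.999). WT was the lowest library for both genes also with median scaling, quantile normalization and rescaling to TPM. Mmp11, an enzyme of stromal cells, was on either side of WT, at 1.98, 2.68 and 1.48 RPKM.

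A pair of metalloproteinases lay below WT in both knockouts. Mmp23, a membrane-anchored member of the family, was at 2.64, 0.409 and 0.673 RPKM, from about 184, 18 and 33 reads (NM_011985, chromosome 4, 155650655 to 155654539, GRCm38). It had the largest mean difference of the 26 in size (log2 difference −1.24, SE 0.81, limma adjusted p = 0.999), and its span overlaps the gene Mib2. The Mmp23 gene has 2 RefSeq transcripts, a group in which 59.4% of matrix transcripts are listed at 0 in all 3 libraries. Mmp23 was also the 1 matrix gene at least 2-fold from WT in both knockouts with these closer to each other than to WT. It reached the level for testing only through WT, as both knockouts were under 1 RPKM, so the filter itself favoured a lower value in the knockouts. Of all tested transcripts 1.5% were lower by this rule and 3.19% higher, where 0 matrix genes stood. With a pseudocount of 5 Mmp23 did not meet the rule. Mmp15, another membrane-type enzyme, was at 1.502, 1.028 and 0.601 RPKM.

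Of the inhibitors, Timp2, which also helps Mmp14 to activate Mmp2, was at 4.81, 3.48 and 6.81 RPKM, on either side of WT. Timp3, the inhibitor bound to the matrix, was at 2.85, 2.44 and 0.575 RPKM (log2 difference −0.73, SE 0.77, limma adjusted p = 0.999), with DKO 2 apart. Timp3 lies within the span of Syn3. The ratio of Timp2 to Timp3 was 1.69, 1.43 and 11.9. The ratio of Mmp2 to Timp2 was 2.33, 4.32 and 2.29, with DKO 1 apart. The RPKM of all listed metalloproteinases divided by that of the TIMPs was 2.88, 4.37 and 3.63, with WT lowest and Timp1 listed at 0 throughout. The Timp1 gene has 3 RefSeq transcripts, a group in which 88.9% of matrix transcripts are listed at 0. Its 0 is thus not read as absence, and the ratio holds no value for it. Of enzymes known from inflammatory cells, Mmp8, of neutrophils, had 0.252 RPKM in DKO 1, Mmp9 had 0.0194 RPKM in WT, and both were listed at 0 elsewhere. Mmp12, of macrophages, was listed at 0 throughout, and its gene has 3 RefSeq transcripts, a group in which most matrix transcripts are listed at 0.

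**Figure D3:**
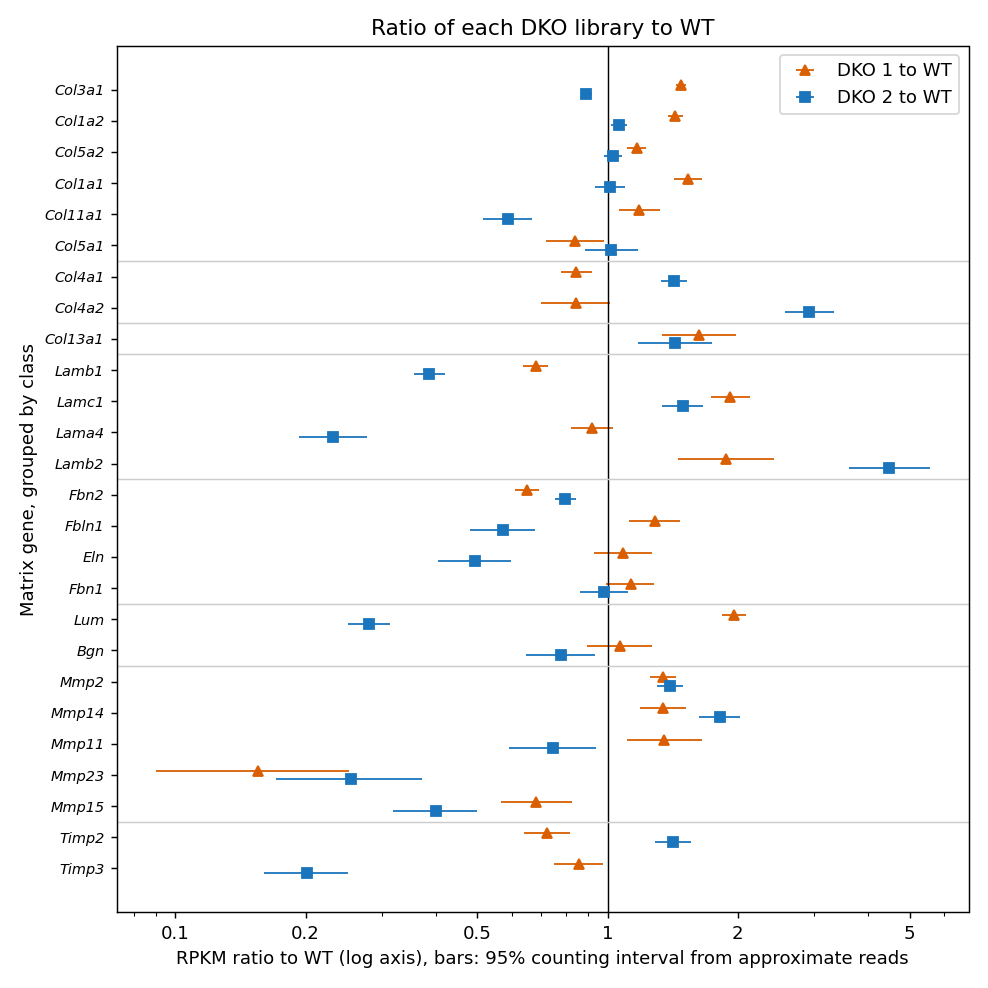
RPKM ratio to WT (log axis) of DKO 1 (triangles) and DKO 2 (squares) for the 26 tested matrix genes; bars are 95% counting intervals from approximate read numbers and leave out variation between animals. The intervals of Mmp2 overlap each other above 1, whereas those of Lum, Timp3, Lama4 and Col4a2 are far apart.

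Counting error was set beside the distance between the knockouts. Approximate read numbers behind the tested values ran from 18 for Mmp23 in DKO 1 to 10289 for Col3a1 in WT. The 95% exact binomial interval of the ratio of DKO 2 to DKO 1, which covers counting error only, lay below 1 for 16 of the 26 (39.6% of the 2049 tested transcripts with a length), above 1 for 7 (46.9%) and held 1 for 3. DKO 1 exceeded DKO 2 by 6.98 times for Lum (6.25 to 7.81), by 4.25 times for Timp3 (3.38 to 5.41) and by 3.97 times for Lama4 (3.29 to 4.81). DKO 2 exceeded DKO 1 by 3.48 times for Col4a2 (2.95 to 4.12) and by 2.39 times for Lamb2 (1.96 to 2.93). Against WT, the intervals of both knockouts lay above 1 for 6 of the 26 (24.8% of the 2049), namely Col13a1, Col1a2, Lamb2, Lamc1, Mmp2 and Mmp14. Of these, Col1a2 turned to the lower side of WT in DKO 2 with quantile normalization (log2 difference −0.10) and with rescaling to TPM (−0.28). The intervals of both lay below 1 for 5 (24.8% again), namely Fbn2, Lamb1, Mmp15, Mmp23 and Timp3. Both counts are near those shares of the whole table. Of the genes named, Lamb2 reached the level for testing only through DKO 2, and Mmp23 only through WT.

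Many matrix genes with several transcripts had no value. Of the 98 transcripts, 40 (40.8%) were listed at 0 in all 3 libraries, 32 were above 0 but under the level for testing, and 26 were tested. The share at 0 was 10.4% (5 of 48) for genes with 1 RefSeq transcript, 59.4% (19 of 32) for genes with 2 and 88.9% (16 of 18) for genes with 3 or more. Over the whole table these shares were 47.6%, 69.4% and 84.3%. Fn1, for fibronectin, was listed at 0 in each of its 7 transcripts, as were Postn, for periostin, in 3, and Sparc, for osteonectin, in 2. Mesenchyme usually expresses these genes strongly, so a 0 here can be a failed estimate and is not read as absence. Fbln2, Lamb3, Col6a3 and Col17a1 were also at 0 in each listed transcript. In all, 20 of the 78 genes had no transcript above 0, and 22 of the 26 tested genes have 1 RefSeq transcript.

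**Figure D4:**
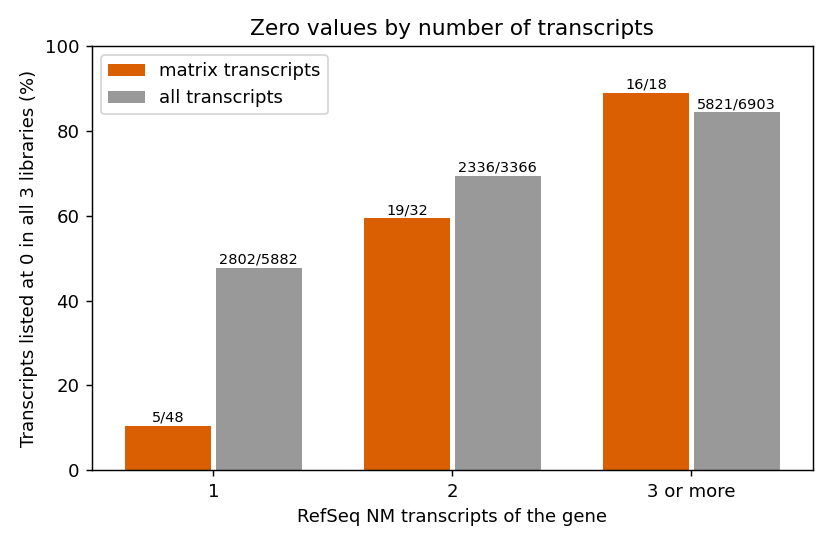
Percentage of transcripts listed at 0 in all 3 libraries for matrix transcripts and for all transcripts, grouped by how many RefSeq transcripts their gene has; the numbers above the bars are transcripts at 0 of transcripts listed. In matrix genes the share runs from 10.4% with 1 transcript to 88.9% with 3 or more.

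Genes that process, bind or cut the matrix were read from lists. In the collagen processing list 9 of 25 genes were tested, and 0 passed in either direction. P4hb, a subunit of prolyl hydroxylase, was at 56.4, 50.1 and 60.4 RPKM, and the collagen folding enzyme Ppib at 51.2, 36.6 and 30.5. Ogn, a small leucine-rich proteoglycan, was over 2-fold above WT in both knockouts, at 2.68, 12.6 and 7.26 RPKM (log2 difference 1.52, SE 0.67, limma adjusted p = 0.999). Among 8 tested matrix receptors 0 passed, with the integrin chain Itgb1 at 21.7, 21.3 and 13.1 RPKM and the syndecan Sdc2 at 9.63, 8.13 and 9.998. Nid1, which joins laminin to type IV collagen and was the 1 tested gene of the other basement membrane genes, was at 1.501, 2.15 and 4.12 RPKM and did not pass. It had the order of Lamb2, with DKO 2 highest as in Col4a1 and Col4a2.

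Of 5 tested microfibril, proteoglycan and matricellular genes 0 passed. Thbs1, for the matricellular protein thrombospondin 1, was at 10.1, 6.76 and 1.97 RPKM, the order of Lamb1. Of 8 tested other proteases and inhibitors 0 passed. Serpine2, a protease inhibitor, was at 27.5, 13.96 and 27.7 RPKM, and the lysosomal protease Ctsl at 22.5, 19.7 and 28.1. Plat, the tissue plasminogen activator, was over 2-fold above WT in both knockouts, at 1.12, 5.33 and 6.08 RPKM (log2 difference 1.66, SE 0.64, limma adjusted p = 0.999).

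Markers of other cells and base composition also differed between the libraries. The 10 fibroblast and mesenchyme markers in the table summed to 129.7, 133.9 and 119.2 RPKM, with Pdgfrb and Tbx4 listed at 0 throughout. Vim made up most of this, at 102.5, 95.2 and 90.5 RPKM with WT highest, and the other 9 summed to 27.2, 38.7 and 28.7. The 4 further tested markers were highest in DKO 1 and differed in DKO 2: the transcription factors Foxf1, at 9.15, 12.4 and 8.90 RPKM, and Tcf21, at 11.8, 14.4 and 9.65, were below WT there, whereas the growth factor Fgf10, at 1.71, 5.24 and 3.57, and the transcription factor Meox2, at 3.92, 5.19 and 5.10, were above it. The 6 smooth muscle markers summed to 26.3, 30.1 and 26.04 RPKM. Of these, Tagln was at 16.5, 14.8 and 8.77 RPKM with WT highest, and the other 5 summed to 9.83, 15.2 and 17.3 with WT lowest. The 7 endothelial markers, of which Pecam1, Emcn and Tek were at 0 throughout, summed to 3.63, 3.95 and 4.09 RPKM. Of the 7 epithelial markers, Sftpc, for surfactant protein C, was at 369.4, 7.55 and 0.0364 RPKM, and the other 6 summed to 33.4, 12.9 and 26.6. Among those, Epcam, at 17.4, 6.75 and 10.6, and Foxa1, at 2.64, 0.798 and 0.688, were below WT in both knockouts. Krt18, at 12.2, 4.10 and 14.7, and Cdh1, at 1.05, 1.19 and 0.603, lay on either side of WT. Nkx2-1 was at 0 throughout. As for Fn1, a 0 of this or any other marker can be a failed estimate and is not read as absence. Of the 8 neutrophil markers, S100a8 was at 3.04, 72.2 and 107.6 RPKM, the other 7 summed to 0.0323, 4.88 and 21.02, and 3 of them, Ngp, Elane and S100a9, were at 0 throughout. Of the 8 macrophage markers, Tyrobp was at 24.9, 218.9 and 52.3 RPKM and the other 7 summed to 12.2, 51.3 and 8.86, with C1qc on either side of WT at 9.43, 25.1 and 0.111 and Cd68 at 0 throughout. DKO 2 stood apart in 5 liver markers (7.55, 11.4 and 182.6 RPKM), 6 heart markers (21.1, 13.7 and 81.8, mostly Myl4, with Tnnt2, Myh6 and Nppa at 0 throughout) and 6 erythroid markers (20199, 28712 and 102767, mostly Hbb-y). Bone markers summed to 0.796, 0.550 and 0 RPKM, and Krt19, the 1 mesothelial marker in the table, was at 3.08, 6.17 and 9.11. The 4 Y-linked genes were at 0 in WT and summed to 22.3 and 8.11 RPKM in the knockouts, so sex and genotype cannot be told apart. Over the 26 matrix genes, the difference of DKO 2 from DKO 1 correlated with the GC content of the transcript at Pearson r = 0.67 (Spearman 0.47), as a description across genes that share 2 libraries, and at 0.21 (0.26) over 2049 tested transcripts. The part of these markers, of sex and of GC content in the matrix values was not tested.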

How the data were processed

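The authors deposited RPKM values (reads per kilobase of transcript, scaled to library depth), in 1 column per library for 16383 RefSeq transcripts. Per the submitters' processing notes, cutadapt, TopHat2, HTSeq and edgeR were used with build mm10, with versions, order, annotation and strand setting not given in the sources used here. Names came from a RefSeq table (GRCm38.p6, 16151 transcripts) and GENCODE M21 (77 more), and 155 stayed unnamed.

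Groups follow the genotype labels (1 WT, 2 DKO). Values were analysed as log2(RPKM + 1) with limma 3.58.1 in R 4.3.3 (mean-variance trend, two-sided, adjusted p under 0.05) on the 2066 transcripts that averaged 1 RPKM or more. The fit had 1 residual degree of freedom and 11.2 prior degrees of freedom. It was run on simulated data whose planted changes were far larger than the differences of the matrix genes. That run does not show how the fit works at the sizes seen here. A pseudocount of 1 understates the change of low genes. Every member with a mean of at least 1 RPKM is named, and others if above 1 RPKM in 1 library. A single gene that this rule takes is not reported by name. Further members under that level, and Ogn, Plat and the marker genes named, were chosen after their values were seen. Members and lists were chosen with earlier results of these data known, and the seed search was added after seeing the data.

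RPKM times transcript length gave the worth of 1 read and an estimated depth of 48700000 (WT), 30700000 (DKO 1) and 34200000 (DKO 2) reads. As 46.3%, 46.2% and 44.5% of values between 1 and 100 reads came within 0.05 of a whole number, read numbers are approximate, and 95% intervals cover counting error only.

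As alternatives the pseudocount was set to 0.1 or 5, the filter dropped or raised to 5 RPKM, the scaling changed (median, quantile, TPM), the moderation run without trend or robustly, and each DKO library left out.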

Additional observations from a re-analysis of the deposited data

How the results depend on the processing

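No matrix gene was called under any of the 9 alternative fits, in which the lowest limma adjusted p of a member was 0.922. Over the whole table the 2 calls became 13 with a pseudocount of 0.1, 1 with a pseudocount of 5, 0 without a filter, 10 with a filter at 5 RPKM, 16 with median scaling, and 0 with quantile normalization or rescaling to TPM. Changing the filter or the moderation leaves a log2 difference as it is, so only the pseudocount and the scaling could turn its direction. For 12 of the 26 genes the knockouts lay on either side of WT, so the direction of the mean is that of 1 knockout only. Of the 26 genes, 20 kept the direction of their mean difference in every alternative fit that held them. With rescaling to TPM, which moved the median of all tested transcripts to −0.22, it turned to −0.090 for Col5a2, −0.11 for Fbn1, −0.16 for Mmp11, −0.024 for Col3a1, −0.084 for Col4a1 and −0.19 for Timp2, and with quantile normalization to −0.047 for Timp2. The count above WT in both knockouts was 8 as deposited, 6 with quantile normalization and 5 with TPM. The count past the 2-fold rule on the lower side was 0 with a pseudocount of 5 and with a filter at 5 RPKM, which removes Mmp23. Leaving out 1 knockout library gave a value with no test. Without DKO 1 or without DKO 2, 0 to 2 genes were at least 2-fold higher and 1 to 5 lower. The share of all tested transcripts past 2-fold in 1 knockout was not counted, so these counts are not read as a result about matrix genes. The median over the members ran from −0.09 to 0.13. Without DKO 1 the genes past 2-fold in DKO 2 were Col4a2 and Lamb2 (higher) and Lamb1, Lama4, Lum, Timp3 and Mmp23 (lower). Among them, Lamb2 reached the level for testing only through DKO 2, and Mmp23 only through WT. No paired analysis was possible because WT is 1 library with no replicate number. The cause of these shifts was not tested.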
